A study of Mus musculus with 4 samples.

Results

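The ADP-ribosylation machinery was followed through 8 genes in the small intestinal epithelium of irradiated mice: the 6 interferon-linked genes Parp9, Dtx3l, Parp14, Parp10, Parp11 and Parp12, and the DNA-damage enzymes Parp1 and Parp2. They were chosen by name, and each of the 8 was found once among the 32285 genes of each library. The KO mice were VilCreIfnlr1fl/fl, in which a Villin-driven Cre removes floxed Ifnlr1, a chain of the interferon-lambda receptor, from intestinal epithelium, and the WT mice were wild type. Both genotypes were sedated with ketamine and xylazine and received 11 Gy of gamma irradiation with the head, thorax and upper limbs shielded. No unirradiated mouse was analysed here. The sources disagree on when tissue was taken: 96 h by the design text, 3 days by the protocol. Live EPCAM-positive, CD45-negative cells of 3 KO and 3 WT mice were sorted, each mouse carrying its own hashtag, and the mice of a genotype were pooled into 1 droplet library. Genotype and library therefore cannot be told apart. Age, sex and strain background are not given in the sources used here, and a second experiment named in them was not analysed here.

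ADP-ribosyltransferases of the PARP family take ADP-ribose from NAD and attach it to proteins or nucleic acids. PARP1 and PARP2 are switched on by DNA breaks and build chains of ADP-ribose that recruit repair factors. Most of the interferon-linked members attach single units instead, and several of their genes are transcribed through a complex containing IRF9 that interferons activate. PARP9 binds the ubiquitin ligase DTX3L, PARP14 carries macrodomains that read ADP-ribose, and PARP10, PARP11 and PARP12 are mono-ADP-ribosyltransferases, of which PARP12 has zinc fingers and has been studied as an antiviral protein. In the gut, interferon-lambda acts largely on the epithelium.

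The libraries held 110960113 gene UMIs (unique molecular identifiers, each counting 1 captured transcript) in 7370 KO barcodes and 102915321 in 10453 WT barcodes. A minimum of 1000 UMIs and 500 genes and a mitochondrial share no higher than 25% left 4028 KO and 5563 WT barcodes, and 28 barcode sequences occurred in both libraries before this filter and 9 after it. Hashtags assigned 1030, 995 and 843 cells to KO mice 1, 2 and 3, and 845, 866 and 1062 to WT mice 1, 2 and 3. The mice with hashtag 2 stood apart: their median depth was 20575 UMIs per cell in KO and 12657 in WT, against 8527 to 11623 in the other 4 mice, and clusters 13 and 14 were almost wholly theirs (217 of 221 and 251 of 251 assigned cells). Enterocyte-like cells numbered 2907 in KO and 3251 in WT, and goblet-like cells 403 in KO and 373 in WT. The other named classes held 29 KO and 66 WT Paneth-like, 45 KO and 54 WT enteroendocrine-like, 21 KO and 21 WT tuft-like, 171 KO and 322 WT cycling-like, and 29 KO and 37 WT immune-like cells. CPM below are a gene's UMIs per 1000000 UMIs of the cell set. Epcam stood at 2706 to 4312 CPM in enterocyte-like cells of the 6 mice, and Ptprc, which encodes CD45, had no UMI in enterocyte-like cells of the KO mice and at most 0.168 CPM in those of the WT mice. Ifnlr1 itself was at 40.0, 23.4 and 33.1 CPM in KO and at 36.5, 25.7 and 36.2 in WT enterocyte-like cells, so its 3' tag does not check the deletion.

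Parp9, Dtx3l and Parp14 lie near each other on mouse chromosome 16 (mm10): Parp9 at chr16:35938470-35972605 on the plus strand, Dtx3l at chr16:35926511-35939151 on the minus strand and Parp14 at chr16:35832874-35871544 on the minus strand. The annotated bodies of Parp9 and Dtx3l overlap head to head with start sites 681 bases apart, and 54966 bases separate Parp14 from Dtx3l. The 3' end of Parp9 also lies inside the antisense gene Gm15564 (chr16:35966752-35983230, minus strand). Whether counting used strand is not given in the sources used here, so reads in either overlap cannot be told apart. The others are Parp10 (chr15:76231174-76243441, minus strand, overlapping Plec), Parp11 (chr6:127446840-127494261, plus strand), Parp12 (chr6:39086410-39118349, minus strand), Parp1 (chr1:180568924-180601254, plus strand) and Parp2 (chr14:50807841-50821301, plus strand).

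Promoter windows of 250 bases before to 50 after a start site were available from RefSeq (GRCm38.p6, the build also called mm10) for 5 of the 8 genes, in 6 windows: Parp11 with a pair of windows, Dtx3l, Parp12, Parp1 and Parp2. Each was searched on both strands for the core of the interferon-stimulated response element (GAAANNGAAA), which a complex containing IRF9 reads, and for the core of the gamma-activated site (TTCNNNGAA). Only the upstream Parp11 window held a match, 1 of each, and the matches overlap. Of 32851 promoter windows of 300 bases in the same table, 3.44% held the first core and 8.30% the second. The capitals mark both matches in the upstream Parp11 window, with the response element read on the minus strand from 44 bases before the start and the gamma-activated site from 37 bases before it. The other 3 are shown because their genes' levels are described below, and a window with no match says only that these letters do not occur in it.
Parp11, chr6:127446590-127446889, plus strand: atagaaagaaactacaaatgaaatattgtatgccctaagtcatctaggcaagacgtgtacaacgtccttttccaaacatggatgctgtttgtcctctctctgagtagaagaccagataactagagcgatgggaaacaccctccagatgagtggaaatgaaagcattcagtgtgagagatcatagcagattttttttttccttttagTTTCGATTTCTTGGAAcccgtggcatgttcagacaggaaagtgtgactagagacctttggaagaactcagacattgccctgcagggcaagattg
Parp11, chr6:127453377-127453676, plus strand: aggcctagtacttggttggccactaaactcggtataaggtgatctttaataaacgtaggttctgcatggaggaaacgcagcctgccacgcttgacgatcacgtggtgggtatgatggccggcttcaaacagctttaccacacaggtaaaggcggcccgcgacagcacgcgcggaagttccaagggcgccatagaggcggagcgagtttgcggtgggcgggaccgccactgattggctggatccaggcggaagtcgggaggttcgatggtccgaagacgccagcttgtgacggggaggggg
Dtx3l, chr16:35938978-35939277, minus strand: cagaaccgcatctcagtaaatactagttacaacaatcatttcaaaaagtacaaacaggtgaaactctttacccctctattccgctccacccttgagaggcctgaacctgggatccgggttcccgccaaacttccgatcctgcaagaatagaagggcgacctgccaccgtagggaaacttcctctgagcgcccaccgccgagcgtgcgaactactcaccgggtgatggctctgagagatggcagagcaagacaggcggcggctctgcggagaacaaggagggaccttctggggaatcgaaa
Parp12, chr6:39118300-39118599, minus strand: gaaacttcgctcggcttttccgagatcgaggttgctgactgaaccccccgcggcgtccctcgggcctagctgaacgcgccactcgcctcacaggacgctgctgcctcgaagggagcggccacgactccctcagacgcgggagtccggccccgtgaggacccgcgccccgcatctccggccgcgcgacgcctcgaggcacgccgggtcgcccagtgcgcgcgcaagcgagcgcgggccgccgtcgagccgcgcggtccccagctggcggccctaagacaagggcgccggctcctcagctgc

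Among enterocyte-like cells, which absorb nutrients along the villus, 5 of the 6 interferon-linked genes were lower in KO mice than in WT mice when mice sharing a hashtag number were compared within the pair, while Parp2 was higher at the edge of the threshold and Parp1 did not pass. The labels do not state that a shared hashtag number pairs mice. Without the pairing no gene of 10666 tested passed an adjusted p of 0.05 (0% called, 378 genes at an unadjusted p under 0.05), and all 8 members stood at an adjusted p of 0.911 (edgeR). DESeq2 without the pairing called 58 genes, no member among them. Values are CPM of a mouse's enterocyte-like cells, for mice 1, 2 and 3 in order.

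Dtx3l, the ubiquitin ligase partner of PARP9, had 51.4, 38.7 and 50.4 in KO mice against 64.6, 65.5 and 75.9 in WT mice. Every KO mouse lay below every WT mouse. It fell by 0.73 on the log2 scale (SE 0.12, adjusted p = 0.00807) with the pairing, against an unpaired log2 fold change of -0.72 (SE 0.23). Parp11, a mono-ADP-ribosyltransferase with low counts, had 5.98, 4.16 and 4.41 in KO against 7.74, 7.44 and 9.84 in WT, again without overlap. Its paired log2 fold change was -0.96 (SE 0.22, adjusted p = 0.0236). Of all genes tested, 2.87% had every KO mouse below every WT mouse, and these were the 2 members among them.

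Parp12 had 105, 48.3 and 115 in KO against 155, 114 and 182 in WT. KO mouse 3 lies just above WT mouse 2, so the groups overlap, and within each hashtag number the KO mouse was lower. The paired log2 fold change was -0.98 (SE 0.13, adjusted p = 0.00392), the lowest adjusted p of the 8 genes in this comparison. Parp14 had 217, 117 and 203 in KO against 283, 176 and 313 in WT, so the groups overlap while KO was lower within each number. It fell by 0.70 on the log2 scale (SE 0.12, adjusted p = 0.00879) with the pairing. Parp9 had 77.5, 52.4 and 73.3 in KO against 74.6, 85.2 and 92.3 in WT, and KO mouse 1 lay above WT mouse 1 on this scale. Its paired log2 fold change was -0.49 (SE 0.14, adjusted p = 0.0434).

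Parp10, which has been linked to growth control and alphavirus restriction in other studies, had 19.3, 12.9 and 17.4 in KO against 15.99, 19.4 and 21.2 in WT. The groups overlap, and the paired log2 fold change was -0.38 (SE 0.17, adjusted p = 0.161). The paired fit called 17.4% of the 10666 genes. As shares of all genes tested, 7.60% were called lower and 9.84% higher in KO. So 5 of 6 interferon-linked genes among the lower calls stands against a background of 7.60%, and the median log2 fold change over all genes was 0.06.

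**Figure D1:**
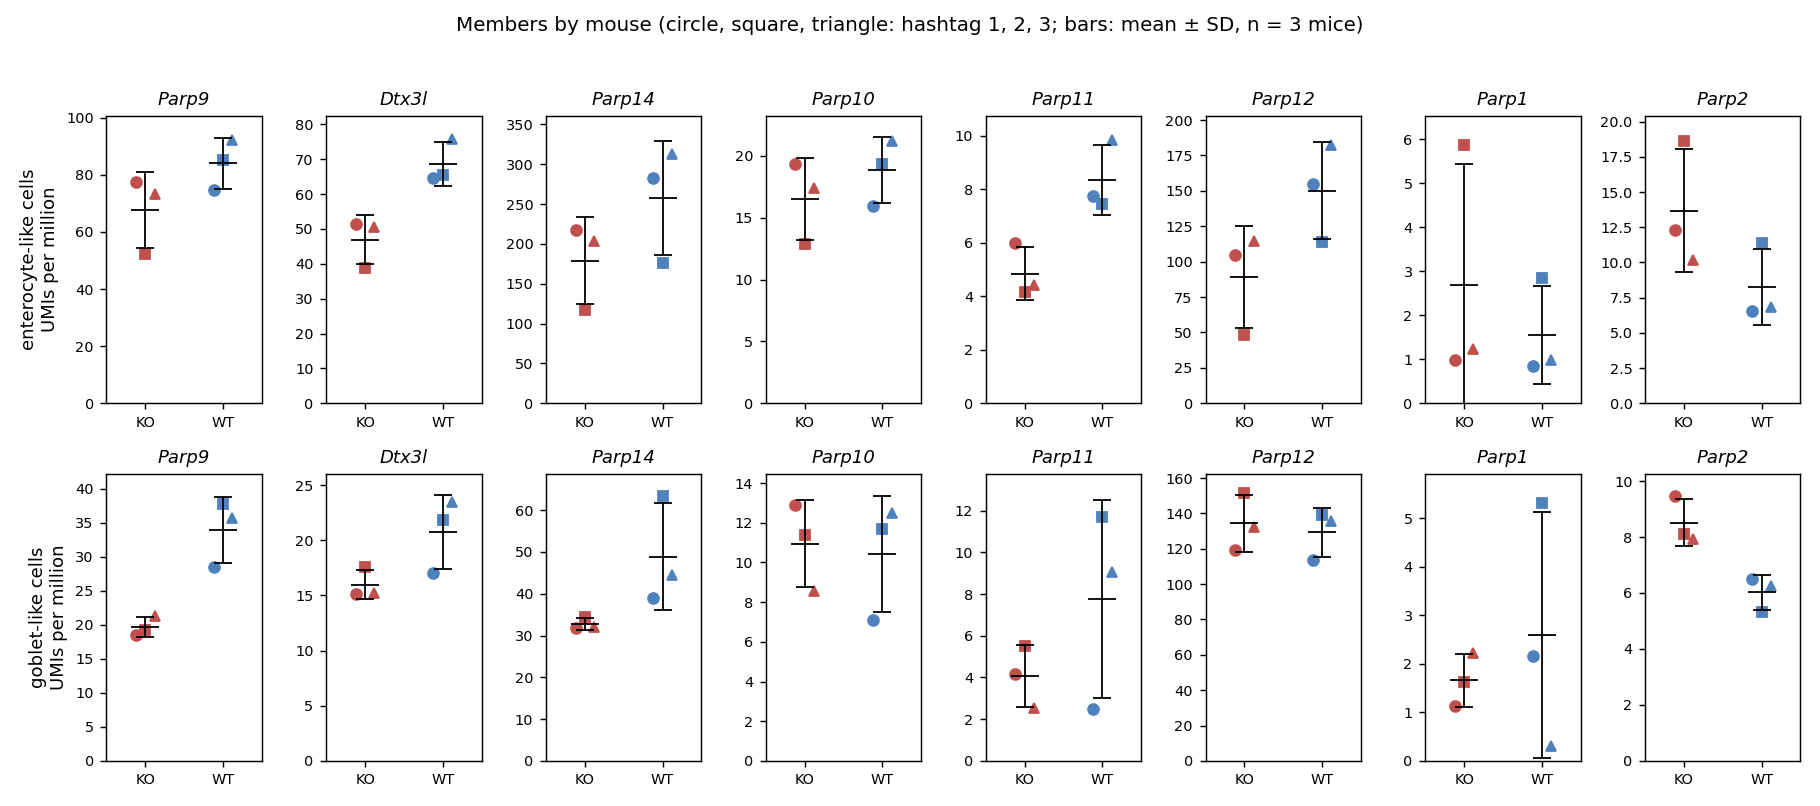
CPM for each of the 8 genes in enterocyte-like cells (upper row) and goblet-like cells (lower row), with KO left of WT. Points are mice and bars give the mean with SD over 3 mice, the Parp1 bar in KO enterocyte-like cells being cut at 0; Dtx3l and Parp11 (upper row) and Parp9 and Parp14 (lower row) are lower in KO with no overlap.

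Parp1 and Parp2 went differently. Parp2 had 12.3, 18.6 and 10.2 in KO enterocyte-like cells against 6.56, 11.4 and 6.81 in WT, and KO was higher within every hashtag number although the groups overlap. Its paired log2 fold change was 0.57 (SE 0.17), with an adjusted p of 0.04998 that sits on the threshold. Parp1 had 0.978, 5.87 and 1.24 in KO against 0.842, 2.84 and 0.973 in WT, and the enterocyte-like cells of the KO and WT libraries held 116 and 45 of its UMIs. The paired log2 fold change was 0.60 (SE 0.35, adjusted p = 0.270), and without KO mouse 2 the unpaired value is -0.61. The markers of cycling cells summed to 83.3, 348 and 76.1 in KO and 58.9, 161 and 56.1 in WT enterocyte-like cells, highest in the mice with hashtag 2 as Parp1 and Parp2 are; their part in the result was not tested.

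The 6 interferon-linked genes together had 35.9, 11.2 and 40.6 UMIs for each UMI of Parp1 and Parp2 in KO enterocyte-like cells, against 81.1, 32.9 and 89.3 in WT cells. KO mice 1 and 3 lie above WT mouse 2, so the groups overlap, and KO is lower within each number. In goblet-like cells the ratio was 19.0, 24.6 and 20.8 in KO against 23.96, 26.8 and 39.7 in WT. Since 3' UMI counts are not scaled per length and the genes differ in capture, the ratio compares mice and not genes.

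How far these calls hold depends on which cells and mice enter. Enterocyte-like clusters were often filled by 1 library: clusters 1, 10, 11 and 16 held 890, 252, 300 and 235 KO cells against 94, 89, 36 and 28 WT cells, and clusters 0, 3, 9 and 15 held 72, 32, 75 and 30 KO cells against 930, 466, 310 and 259 WT cells. In clusters 2, 5, 7 and 13 each library gave at least 33.3% of the cells. There the paired fit called Parp12 (log2 fold change -1.29, adjusted p = 0.00688), Parp14 (-1.02, 0.00774), Dtx3l (-0.88, 0.0119) and Parp9 (-0.69, 0.0277). Parp11 (-1.01, 0.0542) and Parp2 (0.43, 0.284) did not pass. Cluster 13 gave 142 of these 249 cells in KO mouse 2 and 75 of 268 in WT mouse 2. It had Parp14 at 33.4 and Parp12 at 18.2 CPM, against 134 to 364 and 96.5 to 186 in clusters 2, 5 and 7. The set therefore does not balance cell state between the libraries. Without the clusters held by the mice of hashtag 2, only Parp12 passed the paired fit (-0.77, adjusted p = 0.0178), and Dtx3l stood at 0.0620, Parp11 at 0.0812, Parp9 at 0.178 and Parp14 at 0.191. Without the pair of hashtag 3 again only Parp12 passed (adjusted p = 0.0234). With both mice of hashtag 2 left out and no pairing, Dtx3l (0.0284), Parp14 (0.0171) and Parp12 (0.0174) passed. Of 22 alternatives to the unpaired fit, the paired fits among them, Parp12 passed in 8 and Dtx3l and Parp14 in 5 each. Parp11 passed in 4, Parp9 in 3 and Parp2 in 1. The villus-top markers summed to 75105, 32167 and 68874 CPM in KO and 98974, 45662 and 100161 in WT enterocyte-like cells. Paneth markers summed to 778, 515 and 681 in KO against 341, 267 and 319 in WT, and stem markers to 37.5, 36.8 and 36.5 in KO against 56.0, 51.9 and 57.2 in WT, neither overlapping; their part in the result was not tested.

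In goblet-like cells, the mucus-secreting cells, Parp9 and Parp14 fell in KO mice with no pairing needed, while Parp12 did not pass there. Counts rest on 126, 132 and 137 KO cells and 133, 75 and 123 WT cells. Unnamed cluster 8 had 5 goblet markers among its 10 leading genes but is outside this class. It held 7 KO and 396 WT cells, with Parp9 at 58.6 CPM and Parp14 at 172. Goblet-like clusters 4 and 12 had Parp9 at 22.5 and 43.1 CPM and Parp14 at 28.5 and 89.6. The effect of leaving cluster 8 out was not tested. Parp9 had 18.6, 19.2 and 21.3 in KO against 28.4, 37.8 and 35.7 in WT, every KO mouse below every WT mouse. Its log2 fold change was -0.90 (SE 0.16, edgeR adjusted p = 0.0116). Parp14 had 31.9, 34.4 and 32.1 in KO against 39.0, 63.3 and 44.4 in WT, without overlap, and its log2 fold change was -0.66 (SE 0.14, adjusted p = 0.0387). Of the 8804 genes tested, 1.35% were called, and 0.886% of all tested were called lower in KO. Every KO mouse lay below every WT mouse in 5.30% of the 8804 genes. Against these shares stand 2 of 6 interferon-linked genes in each count. With the pairing 2.08% were called, 1.41% lower and 0.670% higher.

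The other goblet-like values did not pass. Dtx3l had 15.2, 17.5 and 15.2 in KO against 17.0, 21.8 and 23.5 in WT, and only KO mouse 2 exceeded WT mouse 1 (log2 fold change -0.50, SE 0.19, adjusted p = 0.261). Parp12 had 119, 151 and 132 in KO against 113, 139 and 135 in WT. Its log2 fold change was -0.06 (SE 0.13, adjusted p = 0.884). Its level in goblet-like cells was thus 134 ± 16.1 in KO and 129 ± 13.8 in WT (SD, n = 3 each), and the sign of the fold change differs from the plain means because library scaling enters it. Parp10 gave -0.05 (SE 0.27) and Parp11 -0.96 (SE 0.46, adjusted p = 0.387). Parp2 had 9.48, 8.12 and 7.94 in KO against 6.49, 5.32 and 6.26 in WT, with every KO mouse above every WT mouse as in 12.3% of genes, but did not pass (log2 fold change 0.33, SE 0.28, adjusted p = 0.661). Parp1 fell under the count filter, with 15 UMIs in the KO library and 18 in the WT library.

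Both goblet-like calls depended on the mice. The Parp9 call was lost without KO mouse 1, KO mouse 2 or WT mouse 3 (adjusted p = 0.0579, 0.0650 and 0.0876), and in the paired fit without the pair of hashtag 1 (0.134), and held in 14 of 18 alternatives. The Parp14 call was lost without KO mouse 1, KO mouse 2, KO mouse 3 or WT mouse 3 (0.134, 0.1197, 0.151 and 0.149) and held in 9 of 18, with DESeq2 at 0.112. Enterocyte markers summed to 5813, 3878 and 4631 CPM in KO goblet-like cells and to 4080, 3549 and 4662 in WT goblet-like cells, against 59621 to 102481 in enterocyte-like cells, and mid-villus markers to 443, 335 and 427 in KO against 243, 271 and 290 in WT; their part in the result was not tested.

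**Figure D2:**
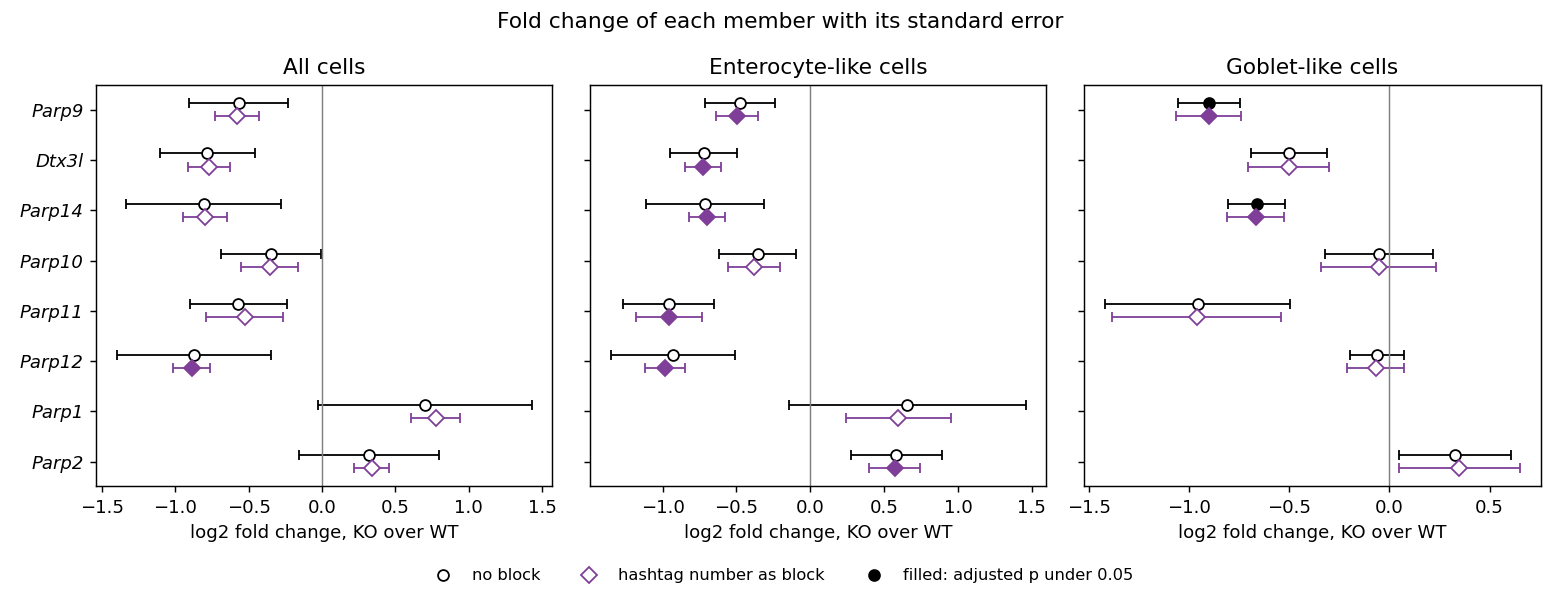
Log2 fold change of KO over WT with its standard error for the 8 genes in all cells, enterocyte-like cells and goblet-like cells, by edgeR without (circles) and with (diamonds) the hashtag number as a block; filled points pass an adjusted p of 0.05. The 5 interferon-linked genes other than Parp10 pass in enterocyte-like cells with the block only, Parp9 and Parp14 pass in goblet-like cells either way, and Parp12 alone passes in all cells with the block.

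Over all cells, where the mix of classes also enters, 0% of 12944 genes were called without the pairing (232 at an unadjusted p under 0.05, adjusted p = 0.989 for all 8 members by edgeR, and 38 genes but no member called by DESeq2) and 1.17% with it, 0.973% lower and 0.201% higher in KO. Parp12 was the 1 member called, at -0.89 (SE 0.13, adjusted p = 0.0328). Dtx3l had every KO mouse below every WT mouse, as 1.66% of genes did (5.01% had every KO mouse above): 37.3, 24.7 and 34.4 in KO against 42.7, 42.2 and 59.6 in WT (paired adjusted p = 0.0632). Parp1 had 8.62, 26.3 and 6.995 in KO and 3.23, 17.4 and 3.59 in WT, and its paired log2 fold change of 0.78 did not pass (SE 0.17, adjusted p = 0.0771). Its all-cell level sits far above that of enterocyte-like cells and is highest in the mice of hashtag 2, which hold nearly all cycling-like cells that carry a hashtag. Cycling-like cells gave 672 of its 947 UMIs in KO mouse 2 and 199 of 367 in WT mouse 2. Enteroendocrine-like cells gave 75 of 127, 72 of 947 and 41 of 108 in KO mice 1, 2 and 3. In WT mice 1, 2 and 3 they gave 3 of 36, 49 of 367 and 5 of 50. The part of either class in the fold change was not tested.

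Whether the genotype difference of a member differs between the classes was tested as goblet-like minus enterocyte-like fold change within mice. This fit had the mouse as a block but did not pair the class differences by hashtag number. It therefore lacks the pairing on which the enterocyte-like calls rest. No gene of 10646 passed (0% called, 258 at an unadjusted p under 0.05). The value farthest from 0 among the interferon-linked genes was Parp12 at 0.90 (SE 0.47, edgeR adjusted p = 1), so the enterocyte-like decrease of Parp12 and its goblet-like value near 0 are not shown to differ.

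Between the classes themselves, 3 of the interferon-linked genes were lower in goblet-like than in enterocyte-like cells of the same mice. Goblet-like cells had 31.9 to 63.3 CPM of Parp14 over the 6 mice, against 117 to 313 in enterocyte-like cells, with no overlap (log2 fold change -2.14, SE 0.22, edgeR adjusted p = 3.37e-05). Dtx3l was lower by 1.38 (SE 0.14, adjusted p = 3.73e-05) and Parp9 by 1.27 (SE 0.14, adjusted p = 6.65e-05), and both were lower in 6 of 6 mice. Parp10 passed at -0.47 (SE 0.18, adjusted p = 0.0439) but in 1 of 9 alternatives. Here 58.2% of genes were called and 32.7% were lower in goblet-like cells, so 4 of 6 interferon-linked calls must be read against that share. Unnamed cluster 8, with goblet markers among its leading genes, is outside the goblet-like class here too. Parp11 (-0.01, SE 0.30, adjusted p = 0.970), Parp12 (0.48, SE 0.27, adjusted p = 0.147), Parp1 (0.32, SE 0.49, adjusted p = 0.591) and Parp2 (-0.26, SE 0.22, adjusted p = 0.332) did not pass, and for Parp1 and Parp11 the standard error spans a wide range.

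**Figure D3:**
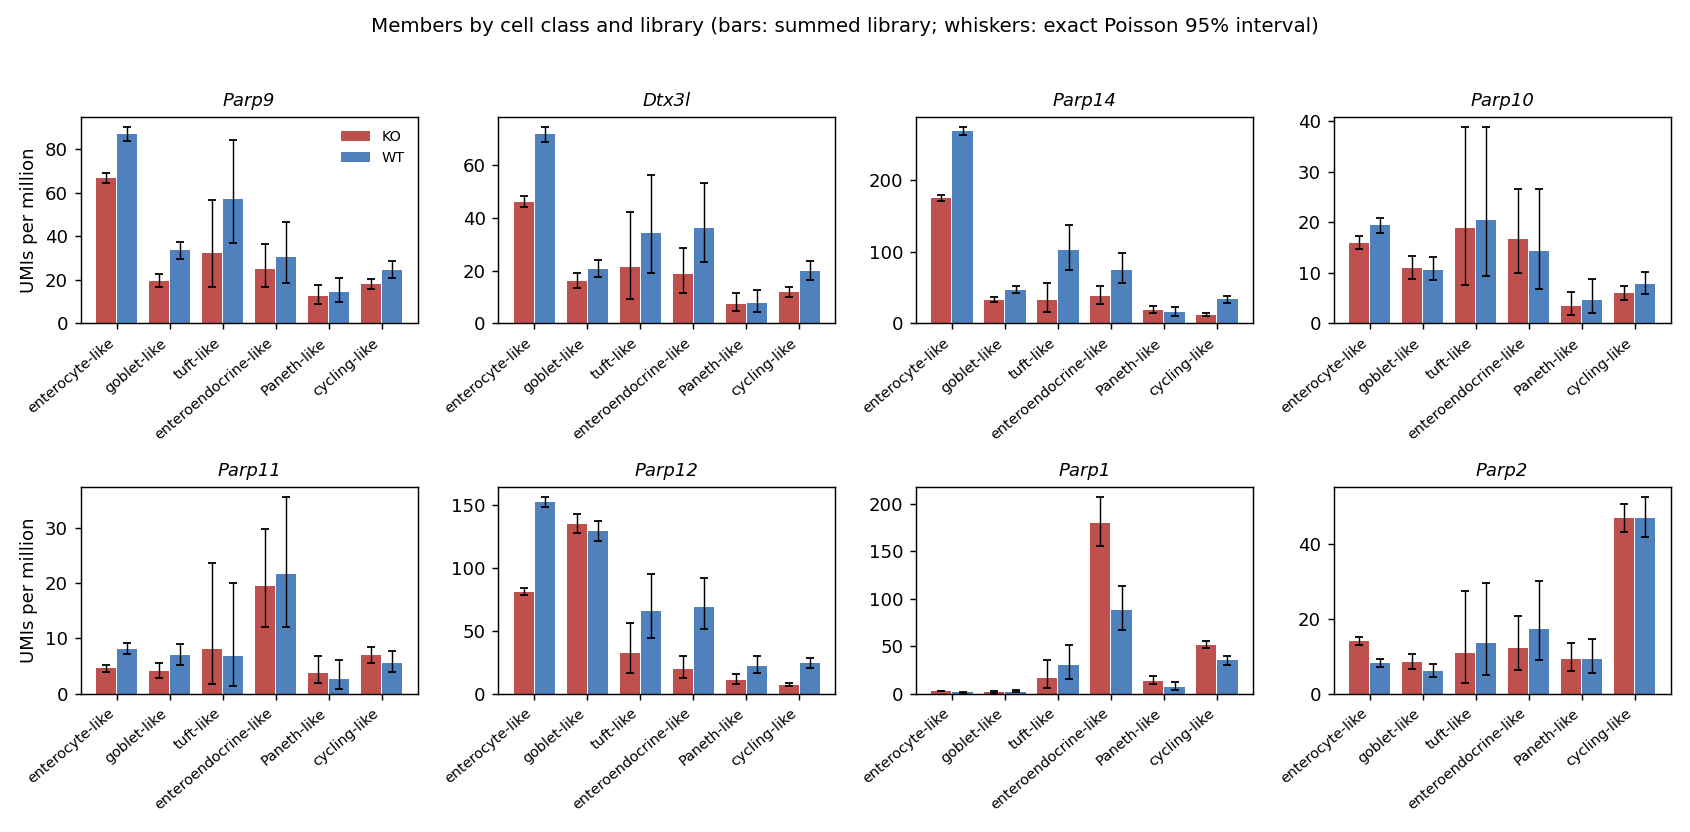
CPM of each gene in 6 named cell classes, KO left of WT, summed over all cells of a library; whiskers are exact Poisson 95% intervals and cover counting error only. Of these 6 classes, Parp14 and Dtx3l are highest in enterocyte-like cells, Parp12 in goblet-like and enterocyte-like cells, and Parp1 in enteroendocrine-like and cycling-like cells.

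The smaller classes had too few cells for a test, and their values are library sums in CPM with exact Poisson 95% intervals. Cycling-like cells, of which those with a hashtag came almost all from the mice of hashtag 2, had Parp1 at 51.3 (47.5 to 55.3) in KO and 34.9 (30.4 to 39.7) in WT and Parp2 at 47.0 (43.4 to 50.9) in KO and 47.2 (42.0 to 52.8) in WT. Against that, Parp14 stood at 11.95 (10.2 to 13.97) in KO and 33.6 (29.3 to 38.4) in WT cycling-like cells, and Parp12 at 7.08 (5.71 to 8.67) in KO and 23.97 (20.3 to 28.1) in WT. Median depth was 69208 UMIs in KO cells and 7750 in WT cells of this class. Its clusters are filled unequally by the libraries: cluster 14 is shared, with 167 KO and 125 WT cells, and cluster 17 has 4 KO and 197 WT cells. Over both libraries Parp14 was at 13.6 CPM in cluster 14 and 77.2 in cluster 17, and Parp12 at 7.66 and 65.3. In the mice of hashtag 2 Parp14 was at 11.99 CPM in KO (10.2 to 14.02, 169 cells) and 16.6 in WT (13.2 to 20.6, 98 cells), with overlapping intervals. Tuft-like cells had Parp14 at 32.3 (16.7 to 56.5) in KO and 103 (74.8 to 137) in WT, on 12 and 45 UMIs. By mouse it was 0, 26.1 and 60.7 in KO (5, 8 and 8 cells) and 213, 74.4 and 178 in WT (2, 12 and 7 cells). The intervals of KO mouse 3 (24.4 to 125) and WT mouse 2 (47.7 to 111) overlap, and that of WT mouse 1 runs from 25.8 to 770.

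Enteroendocrine-like cells, which secrete hormones, had the highest Parp1 level of the named classes, 180 (155 to 207) in KO and 88.0 (67.3 to 113) in WT. By mouse the values were 211, 152 and 243 in KO against 40.5, 186 and 20.2 in WT, which overlap. The KO mice had a Parp1 UMI in 8 of 16, 11 of 16 and 7 of 10 cells, and the WT mice in 1 of 7, 9 of 13 and 3 of 14. A single cell gave 21 of 75, 38 of 72 and 32 of 41 Parp1 UMIs of KO mice 1, 2 and 3, so the highest value, that of KO mouse 3, rests mostly on 1 cell. Enterocyte-like cells of the same libraries had Parp1 at 2.68 (2.21 to 3.21) in KO and 1.35 (0.985 to 1.81) in WT. Parp11 was also at its highest there, 19.6 (12.1 to 29.9) in KO and 21.6 (12.1 to 35.7) in WT.

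Along the villus, enterocyte-like cells were split into 3 equal groups by the share of villus-top markers in the summed villus-top and villus-bottom markers, with cuts at 0.932 and 0.984 and 876 of 4149 cells within 0.005 of a cut. The split is a range of a score and not a cell type. Parp14 was higher in the highest-score cells: 244, 317 and 241 in KO and 280, 241 and 312 in WT, against 147, 53.4 and 177 in KO and 230, 126 and 301 in WT lowest-score cells. It was higher in the highest-score cells of 6 of 6 mice (log2 fold change 1.08, SE 0.30, edgeR adjusted p = 0.0108). This was the 1 call among the 7 members tested, while 63.2% of 9055 genes were called, 29.6% higher and 33.7% lower. Parp10 (0.44, SE 0.19, adjusted p = 0.0632), Parp12 (0.63, SE 0.32, adjusted p = 0.109), Parp9 (0.25), Dtx3l (0.16), Parp11 (-0.08) and Parp2 (-0.28) did not pass, and Parp1 fell under the count filter. Cluster 13, held by the mice of hashtag 2, had Parp14 at 33.4 CPM. Without it the lowest-score cells went from 234 to 92 in KO mouse 2 and from 232 to 157 in WT mouse 2. The Parp14 call held in 9 of 9 alternatives, but none of them left out cluster 13, and the part of that cluster was not tested.

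Genotype within these cells was described without a test. In the highest-score cells Parp12 had 101, 114 and 104 in KO against 134, 160 and 140 in WT, with KO below WT throughout, and Parp2 had 11.6, 8.59 and 10.6 in KO against 6.42, 4.76 and 5.36 in WT, with KO above throughout. Of the 9055 genes, 6.41% had every KO mouse below every WT mouse in these cells and 18.2% every KO mouse above. Parp9, Dtx3l, Parp14, Parp10 and Parp11 overlapped there. In the lowest-score cells Parp9 had 73.4, 43.4 and 72.8 in KO against 85.0, 81.5 and 104 in WT, Dtx3l had 58.5, 30.6 and 53.0 in KO against 78.3, 61.8 and 87.6 in WT, and Parp11 had 6.38, 4.14 and 4.56 in KO against 12.2, 8.14 and 11.9 in WT. KO mice lay below WT mice for all 3, as they did for 1.91% of the 9055 genes in these cells, while 4.58% had every KO mouse above. The groups overlapped in the lowest-score cells for Parp14, Parp10, Parp12, Parp1 and Parp2. Cluster 13 enters the lowest-score cells of the mice of hashtag 2 here too, and its part was not tested.

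**Figure D4:**
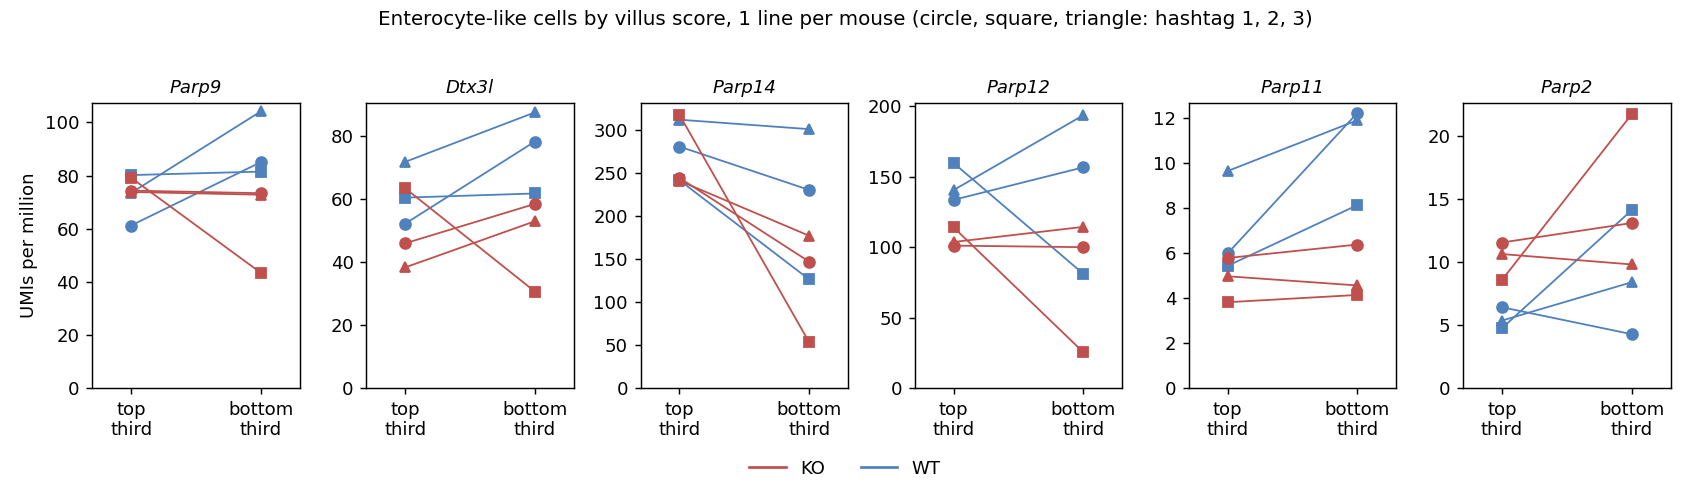
CPM of 6 of the genes in the enterocyte-like cells with the highest (left) and lowest (right) villus score, 1 line per mouse, KO in red and WT in blue. Parp14 lines run downward from the top to the bottom cells in 6 of 6 mice, and the KO mouse of hashtag 2 has the lowest Parp9, Dtx3l, Parp14 and Parp12 in the bottom cells.

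Thinned to 2000 UMIs per cell, Parp14 was seen in 36.7% of KO enterocyte-like cells (exact 95% interval 35.0 to 38.5%) and in 44.0% of WT cells (42.2 to 45.8%), and before thinning in 80.8% of KO and 78.4% of WT cells, at median depths of 9226 and 7626 UMIs. In thinned cycling-like cells the share was 2.34% in KO and 13.9% in WT, a class in which cluster 17 makes up 4 of 171 KO cells and 197 of 322 WT cells before thinning. Parp12 was seen in 19.1% of thinned KO and 28.2% of thinned WT enterocyte-like cells, and in 25% of KO and 26.4% of WT goblet-like cells (44.4% in KO and 43.4% in WT at 4000 UMIs). In the enterocyte-like class the share with Parp9 was 15.3% in KO and 14.8% in WT at 2000 UMIs but 25.3% in KO and 28.4% in WT at 4000, so no order is read from it. At 2000 UMIs Parp9 was seen in 4.25% of KO and 7.63% of WT goblet-like cells. These intervals and shares cover counting error only, since cells of a library are not replicates.

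Related genes were read from lists named for their function. Of 28 canonical interferon-stimulated genes tested, 27 were lower in KO enterocyte-like cells with the pairing, with a median log2 fold change of -2.44 beside 0.06 over all genes, and 0 of 28 passed without it. Rsad2, an antiviral radical enzyme, had 5.11, 2.64 and 2.49 CPM in KO against 47.1, 40.4 and 59.9 in WT (paired log2 fold change -4.02). In goblet-like cells 16 of 23 were lower with no pairing, median -1.89 beside 0.01, and Rtp4 had 0.759, 0.325 and 0.318 in KO against 15.5, 24.5 and 24.4 in WT. Usp18 had 0 UMIs in KO goblet-like cells and 19, 10 and 60 in WT mice. The fold changes of the 6 interferon-linked genes lay nearer to 0 than these medians in both classes. Of the interferon signalling genes, Irf9 (-1.45), Stat2 (-1.17), Socs1 (-0.98) and Jak2 (-0.70) were among those lower in KO enterocyte-like cells with the pairing, and Irf9 (-1.95) and Stat2 (-0.87) among those lower in goblet-like cells without it.

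Of the other PARP family genes, Zc3hav1, which encodes the zinc-finger antiviral protein PARP13, fell by 0.69 (SE 0.12, adjusted p = 0.00799) and Parp4, which encodes the vault particle PARP, by 0.51 (SE 0.12, adjusted p = 0.0252) in KO enterocyte-like cells with the pairing, 2 of 8 tested, and 0 of 7 passed in goblet-like cells. Other Deltex ligases, 2 tested in enterocyte-like cells with the pairing and 1 among goblet-like cells, gave 0 calls. Among 13 readers and erasers of ADP-ribose, H2afy, which encodes a histone with a macrodomain, was higher in KO (0.46). Of 13 base excision and single-strand break repair genes, Apex1, the abasic-site nuclease, was higher (1.39, adjusted p = 0.0354), and 0 of 8 passed in goblet-like cells. Among 11 genes of NAD supply and use, Nmnat1 (0.73) and Nmnat3 (0.54) were higher and Nampt (-0.45) lower. These are calls of the paired enterocyte-like fit, which called 17.4% of all genes (9.84% higher and 7.60% lower), so the 1 of 13 readers and erasers and 1 of 13 repair genes do not exceed that share.

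Across the 12 sums of enterocyte-like and goblet-like cells in 6 mice, which share mice and differ mostly by class, the members split by pattern. Parp9, Dtx3l and Parp14 ran together, with a Pearson r of log2 values of 0.97 between Parp9 and Dtx3l, 0.97 between Parp9 and Parp14 and 0.98 between Dtx3l and Parp14, while Parp12 and Parp9 gave -0.06 and Parp12 and Parp2 -0.83. The genes most like Parp9 were B2m, Ifi35 and Trim30d (0.98 each), those most like Dtx3l were Rnf114, Ifi35 and Snx20 (0.99 each), and those most like Parp14 were Ltb4r1, Mroh7 and Mthfsl (0.99 each). Parp10 was closest to Tmem150a, Vwa7 and Zfp236 (0.93 to 0.94), Parp11 to Gm8797, Phf11d and A930037H05Rik (0.82 to 0.85) and Parp12 to Slc26a2, Samhd1 and Klf4 (0.90 to 0.93). For Parp1 these were Pomt1, Pnpt1 and Dnttip2 (0.91 to 0.92), and for Parp2 Ints11, Rrp36 and A130014A01Rik (0.93 to 0.94).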

How the data were processed

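Single-cell 3' mRNA and hashtag libraries of 3 KO and 3 WT mice were read from the deposited matrices, which hold raw UMI counts per gene and barcode made by the authors with Cell Ranger 7.0.1 and mm10, per the submitters' processing notes, which also name Seurat 4.1.0. Whether intronic reads were counted is not given in the sources used here. Kept barcodes had 1000 or more UMIs, 500 or more genes and no more than 25% mitochondrial UMIs. Mice were assigned with HTODemux (Seurat 5.3.0, quantile 0.99), which removed 305 KO and 549 WT doublets; 855 KO and 2241 WT cells without a hashtag entered clustering and library sums but no test. Scrublet called 0 doublets in either library and so did not work, and doublets of 1 mouse stay in. Cells were clustered together with scanpy 1.11.5 (2000 variable genes, 30 components, 15 neighbours, Leiden resolution 1, no batch correction). The members, the genes of the interferon lists used here and some gene families, such as Ifi and Gbp, were left out. Interferon-stimulated genes outside these stayed in, and whether clusters and classes partly follow the interferon response was not tested. Clusters were named from markers, by a score lead of 0.15 over the next class, 3 markers at 20 CPM or more, and no class with more markers than it among the 10 leading genes by fold, each found in 25% or more of the cluster. Clusters that missed these rules stayed unnamed (118 KO and 890 WT cells). The names are rebuilt here, so shares may differ from the study's own. Counts were summed per mouse and class. Only the enterocyte-like and goblet-like classes had 20 or more cells from each mouse. The sums were tested with edgeR 4.0.16 (quasi-likelihood, TMM, filterByExpr, Benjamini-Hochberg over all genes, threshold 0.05). Levels are CPM on a mouse's own cell-set total without TMM. Class and villus comparisons had the mouse as a block. The labels state no pairing of mice. Deviations from the group means of mice with 1 hashtag number correlated at 0.416, 0.854 and 0.638 over all cells and 0.690, 0.892 and 0.681 in enterocyte-like cells. The fit with that number as a block is therefore given beside the unblocked one. KO mouse 1 and WT mouse 3 correlated at 0.638 and 0.730, and KO mouse 3 and WT mouse 1 at 0.461 and 0.544. Deviations within a group cancel out, so mice 1 and 3 correlate in either order once both mice of hashtag 2 stand apart. The values thus set hashtag 2 apart and do not show that the other numbers pair mice. In goblet-like cells the correlations were 0.089, 0.019 and 0.009. With 3 mice against 3, an exact permutation test cannot go below 0.1. Whether the mice of a genotype shared a litter or cage is not given, and p-values measure the spread between these mice. The alternatives were DESeq2 1.42.0, RLE scaling, no count filter, leaving out mice, hashtag pairs or clusters, a 15% mitochondrial limit, 2000 UMIs, a hashtag ratio of 3 and Scrublet scores. The 8 genes and the lists were chosen with earlier results of these data known. All 8 genes were named, with up to 4 genes of each list past the threshold, or up to 2 by mean level where none passed, and the 3 genes most alike. A result on 1 interferon signalling gene is not reported here.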

Additional observations from a re-analysis of the deposited data

How the results depend on the processing

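Used as a replicate block, the hashtag number gave 152 genes called for all cells and 1861 for enterocyte-like cells, each against 0 unblocked, and 183 for goblet-like cells against 119. DESeq2 gave 38 for all cells and 58 for enterocyte-like cells. Leaving out both mice of hashtag 2 gave 9, 914 and 333 calls unblocked for all, enterocyte-like and goblet-like cells. Blocked fits that dropped pair 1, 2 or 3 gave 1212, 55 and 36 for all cells and 1647, 1989 and 292 for enterocyte-like cells, and 43 and 1120 for goblet-like cells that dropped pair 1 or 2. Dropping the clusters held by hashtag 2 gave 10 for all cells (61 blocked) and 370 for enterocyte-like cells (263 blocked), and the blocked fit over mixed clusters gave 1235. No count filter gave 451 goblet-like calls and 1 interaction call. Leaving out 1 mouse gave 37 to 636 goblet-like calls (636 without WT mouse 2, 75 or fewer without any other), 0 for all and enterocyte-like cells, 5492 to 6965 between classes and 4980 to 5963 along the villus. The cause was not tested. Signs turned, as log2 fold changes over the unblocked fits without 1 mouse or, for KO over WT, without both mice of hashtag 2, for these members, none of them called. Along the villus Dtx3l ran from -0.0593 to 0.274 and Parp11 from -0.137 to 0.0751. In the interaction Dtx3l ran from -0.0109 to 0.375, Parp14 from -0.325 to 0.426, Parp11 from -0.421 to 0.507, Parp1 from -1.46 to 0.0106 and Parp2 from -0.592 to 0.0390. For KO over WT, Parp1 ran from -0.0509 to 1.68 and Parp2 from -0.1303 to 0.843 in all cells, Parp1 from -0.605 to 1.32 in enterocyte-like cells, Parp10 from -0.237 to 0.173 and Parp12 from -0.228 to 0.0109 in goblet-like cells, where the blocked fit without pair 3 gave 0.356 for Parp10 and 0.0456 for Parp12. Parp11 between classes ran from -0.203 to 0.192, and was 0.0351 with RLE scaling. Settings that drop hashtag pairs or clusters were chosen after seeing the data. Shares of cells with a UMI moved with thinning depth. Among those printed the order of KO and WT turned for Parp9 and Parp14 in enterocyte-like cells and Parp12 in goblet-like cells. For Parp14 it turned between thinning to 2000 UMIs (36.7% in KO, 44.0% in WT) and no thinning (80.8% in KO, 78.4% in WT). Precision is limited by 3 mice and 1 pool per genotype and by few UMIs of Parp1 and Parp11.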
